A study of Mus musculus with 42 samples.

Results

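The genes of the mitochondrial ribosome were examined in 42 single retinal progenitor cells (RPCs) of the mouse. Members were all genes whose symbol on the array begins with Mrpl or Mrps, the names of the proteins of the large and the small subunit, followed by a number. Of 18194 genes measured, 76 were members, 47 of the large subunit by name and 29 of the small subunit. All 76 matched a RefSeq gene identifier under the same symbol. The retinas were of embryonic day (E) 12.5 (11 cells), E13.5 (4 cells), E14.5 (2 cells), E15.5 (1 cell), E16.5 (11 cells) and the day of birth, P0 (13 cells). The strain CD1 was given for 37 cells, and 5 cells carried no strain label. Cells were picked at random after dissociation with papain and were recognized as RPCs afterwards from their profiles. The study described some of the 42, among them E14.5 cell B1 and E16.5 cell F1, as most likely in transition to neurons. All 42 are called RPCs here. Each cell was amplified by PCR and hybridized to 1 Affymetrix mouse 430 2.0 array. No animal or litter was named for any cell, so that every stage was 1 sample, cells were not counted as replicates, and no test was made. A gene was called present at a MAS 5.0 signal of 1000 or more, on arrays scaled to a common linear scale, and its value was that of its highest probe set.

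Mitochondria carry their own small genome, and the few proteins that it encodes, all subunits of the respiratory chain and the ATP synthase, are made by ribosomes inside the organelle. The RNAs of these ribosomes come from the mitochondrial genome, but every protein of them is encoded in the nucleus, translated in the cytosol and imported. Many of the proteins have counterparts in bacteria, and others were acquired in mitochondria. Dividing neural progenitors, like other growing cells, need these ribosomes to build new respiratory complexes.

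Markers of RPCs were tallied in the cells. The study chose the cells with gene clusters built on Ccnd1, Fgf15, Sfrp2 and Crym, so that these 4 markers are no independent check of the label. Ccnd1, a cyclin of the cell cycle, was present in 41 of 42 cells, Fgf15 in 32, Sfrp2 in 29, and Crym, a marker of late RPCs, in 1 of 11 cells at E12.5 and in 13 of 13 at P0. Of the other markers, Pax6, a transcription factor of the eye field, was present in 41 cells, Dkk3 in 40, and Sox2 and Lhx2, transcription factors of progenitors, in 34 each. Before hybridization, the study assessed the cDNA by PCR for Pax6, Chx10 and Ccnd1. Pax6 is thus no independent check either, and whether Dkk3, Sox2 and Lhx2 are was not tested. The number of genes present per cell lay between 1386 and 5253, with a median of 3034. On 5 of the E16.5 arrays (J1, J2, J4, E8 and F1), the pattern over 18 hybridization control probe sets was displaced with an SD on the log2 scale of 0.644 to 0.667. The same SD was 0.197 or less on each of the 37 other arrays. These 5 arrays had a median of 4103 genes present and the 6 others of E16.5 had 2114.5. E13.5 cell A6 and E16.5 cell F1 had the most signals from genes not expected in retina, with 13 and 24 of 145 keratin, immunoglobulin and chemosensory receptor genes present, against at most 6 in any other cell. Where leaving these arrays out turned a direction or moved a count over all members by over 1.5 times, the value without them is given. For single members such values are given in part.

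Promoter sequences were available for 67 members in the RefSeq table of GRCm38.p6, each from 250 bases before to 50 bases after a transcription start. They were examined because the members, which are spread over the genome, were tallied together in each cell. Members and promoters were searched on both strands for CCGGAAG, a core recognized by ETS factors such as GABP, for GCGCANGC, a core of nuclear respiratory factor NRF1, for ATGGCGG, a core of YY1, and for TATAAA, the TATA box. The letters of these motifs do not contain one another. The promoters of the members in the most and the fewest cells, among those with a single promoter entry, are shown from 5′ to 3′ on the strand of the gene, with matches to the ETS, NRF1 and YY1 cores in capitals.
Mrpl23: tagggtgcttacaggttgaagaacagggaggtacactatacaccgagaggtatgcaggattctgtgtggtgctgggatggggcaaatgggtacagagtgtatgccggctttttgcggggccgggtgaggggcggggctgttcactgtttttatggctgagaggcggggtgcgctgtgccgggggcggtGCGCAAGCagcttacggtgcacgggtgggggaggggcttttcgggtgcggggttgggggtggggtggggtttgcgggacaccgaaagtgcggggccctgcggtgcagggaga
Mrpl51: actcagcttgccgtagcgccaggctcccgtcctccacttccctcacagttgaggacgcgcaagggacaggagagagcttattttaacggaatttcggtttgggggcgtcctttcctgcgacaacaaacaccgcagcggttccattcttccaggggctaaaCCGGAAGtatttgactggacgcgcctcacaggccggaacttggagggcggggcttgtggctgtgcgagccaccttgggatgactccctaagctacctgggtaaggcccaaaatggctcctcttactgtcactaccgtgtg
Mrpl27: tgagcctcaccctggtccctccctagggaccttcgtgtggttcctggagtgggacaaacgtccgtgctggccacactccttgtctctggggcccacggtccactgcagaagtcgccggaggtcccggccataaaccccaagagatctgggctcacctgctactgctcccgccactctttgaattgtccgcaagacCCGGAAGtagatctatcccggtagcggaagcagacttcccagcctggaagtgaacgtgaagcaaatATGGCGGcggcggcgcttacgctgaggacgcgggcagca
Mrps24: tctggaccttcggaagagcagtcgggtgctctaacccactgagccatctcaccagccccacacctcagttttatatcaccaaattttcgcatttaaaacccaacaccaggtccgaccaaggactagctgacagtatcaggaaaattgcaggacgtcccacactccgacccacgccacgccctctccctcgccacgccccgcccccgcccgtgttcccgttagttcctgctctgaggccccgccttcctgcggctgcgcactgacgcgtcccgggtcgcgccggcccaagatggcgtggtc
The promoter of Mrpl23 (chr7:142532782-142533081, plus strand) belongs to a gene present in 28 cells and holds 1 NRF1 core. That of Mrpl51 (chr6:125191950-125192249, plus strand) belongs to a gene present in 27 cells and holds 1 ETS core, although that count rests on a probe set marked as matching several transcripts. That of Mrpl27 (chr11:94653541-94653840, plus strand), present in 3 cells, holds 1 ETS and 1 YY1 core, and that of Mrps24 (chr11:5707652-5707951, minus strand), present in 2 cells, holds none of the 3.

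Over all members, the ETS core stood in 25 of 73 promoters (34.2%), against 8.86% of all 32851 promoters of the table. The NRF1 core stood in 21 of 73 (28.8%, against 9.95%) and the YY1 core in 12 of 73 (16.4%, against 4.05%). TATAAA stood in 5 of 73 (6.85%, against 13.6%). Counted by gene and set against the 14453 measured genes with a promoter entry, the excess was smaller, with the ETS core at 37.3% of the 67 members against 15.0%, the NRF1 core at 31.3% against 17.4%, the YY1 core at 17.9% against 7.04% and TATAAA at 7.46% against 11.5%. In total, 38 of the 67 members (56.7%) had an ETS or an NRF1 core, against 28.8% of those measured genes. Members with the ETS core were present in a median of 14 cells and those without it in 17. The medians were 17 and 16.5 cells with and without the NRF1 core, and 12 and 17 with and without the YY1 core. A match is a description of the letters and not of a bound site.

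The genes of the mitochondrial ribosome were each found in a minority of RPCs as a rule, and none was present in all of them. Members were present in 1176 of 3192 combinations of a member and a cell (36.8%, exact Clopper-Pearson 95% interval 35.2 to 38.5%), while all genes measured were present in 17.0% of combinations. These intervals cover counting error only, and members that share cells do not give independent counts. Every member was present in at least 2 cells, and the median member was present in 16 of 42 cells, against 3 for all genes. In total, 18 members were present in 21 or more cells, 43 in 10 to 20 cells and 15 in fewer than 10. Members in 50% of the cells or more numbered 15 without the 5 E16.5 arrays with displaced controls and 20 without E13.5 A6 and E16.5 F1, in place of 18. Of all genes measured, 10.8% were present in 21 or more cells, and 57 genes were present in all 42. The map of signals by member and cell shows how the positive cells were distributed.

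**Figure D1:**
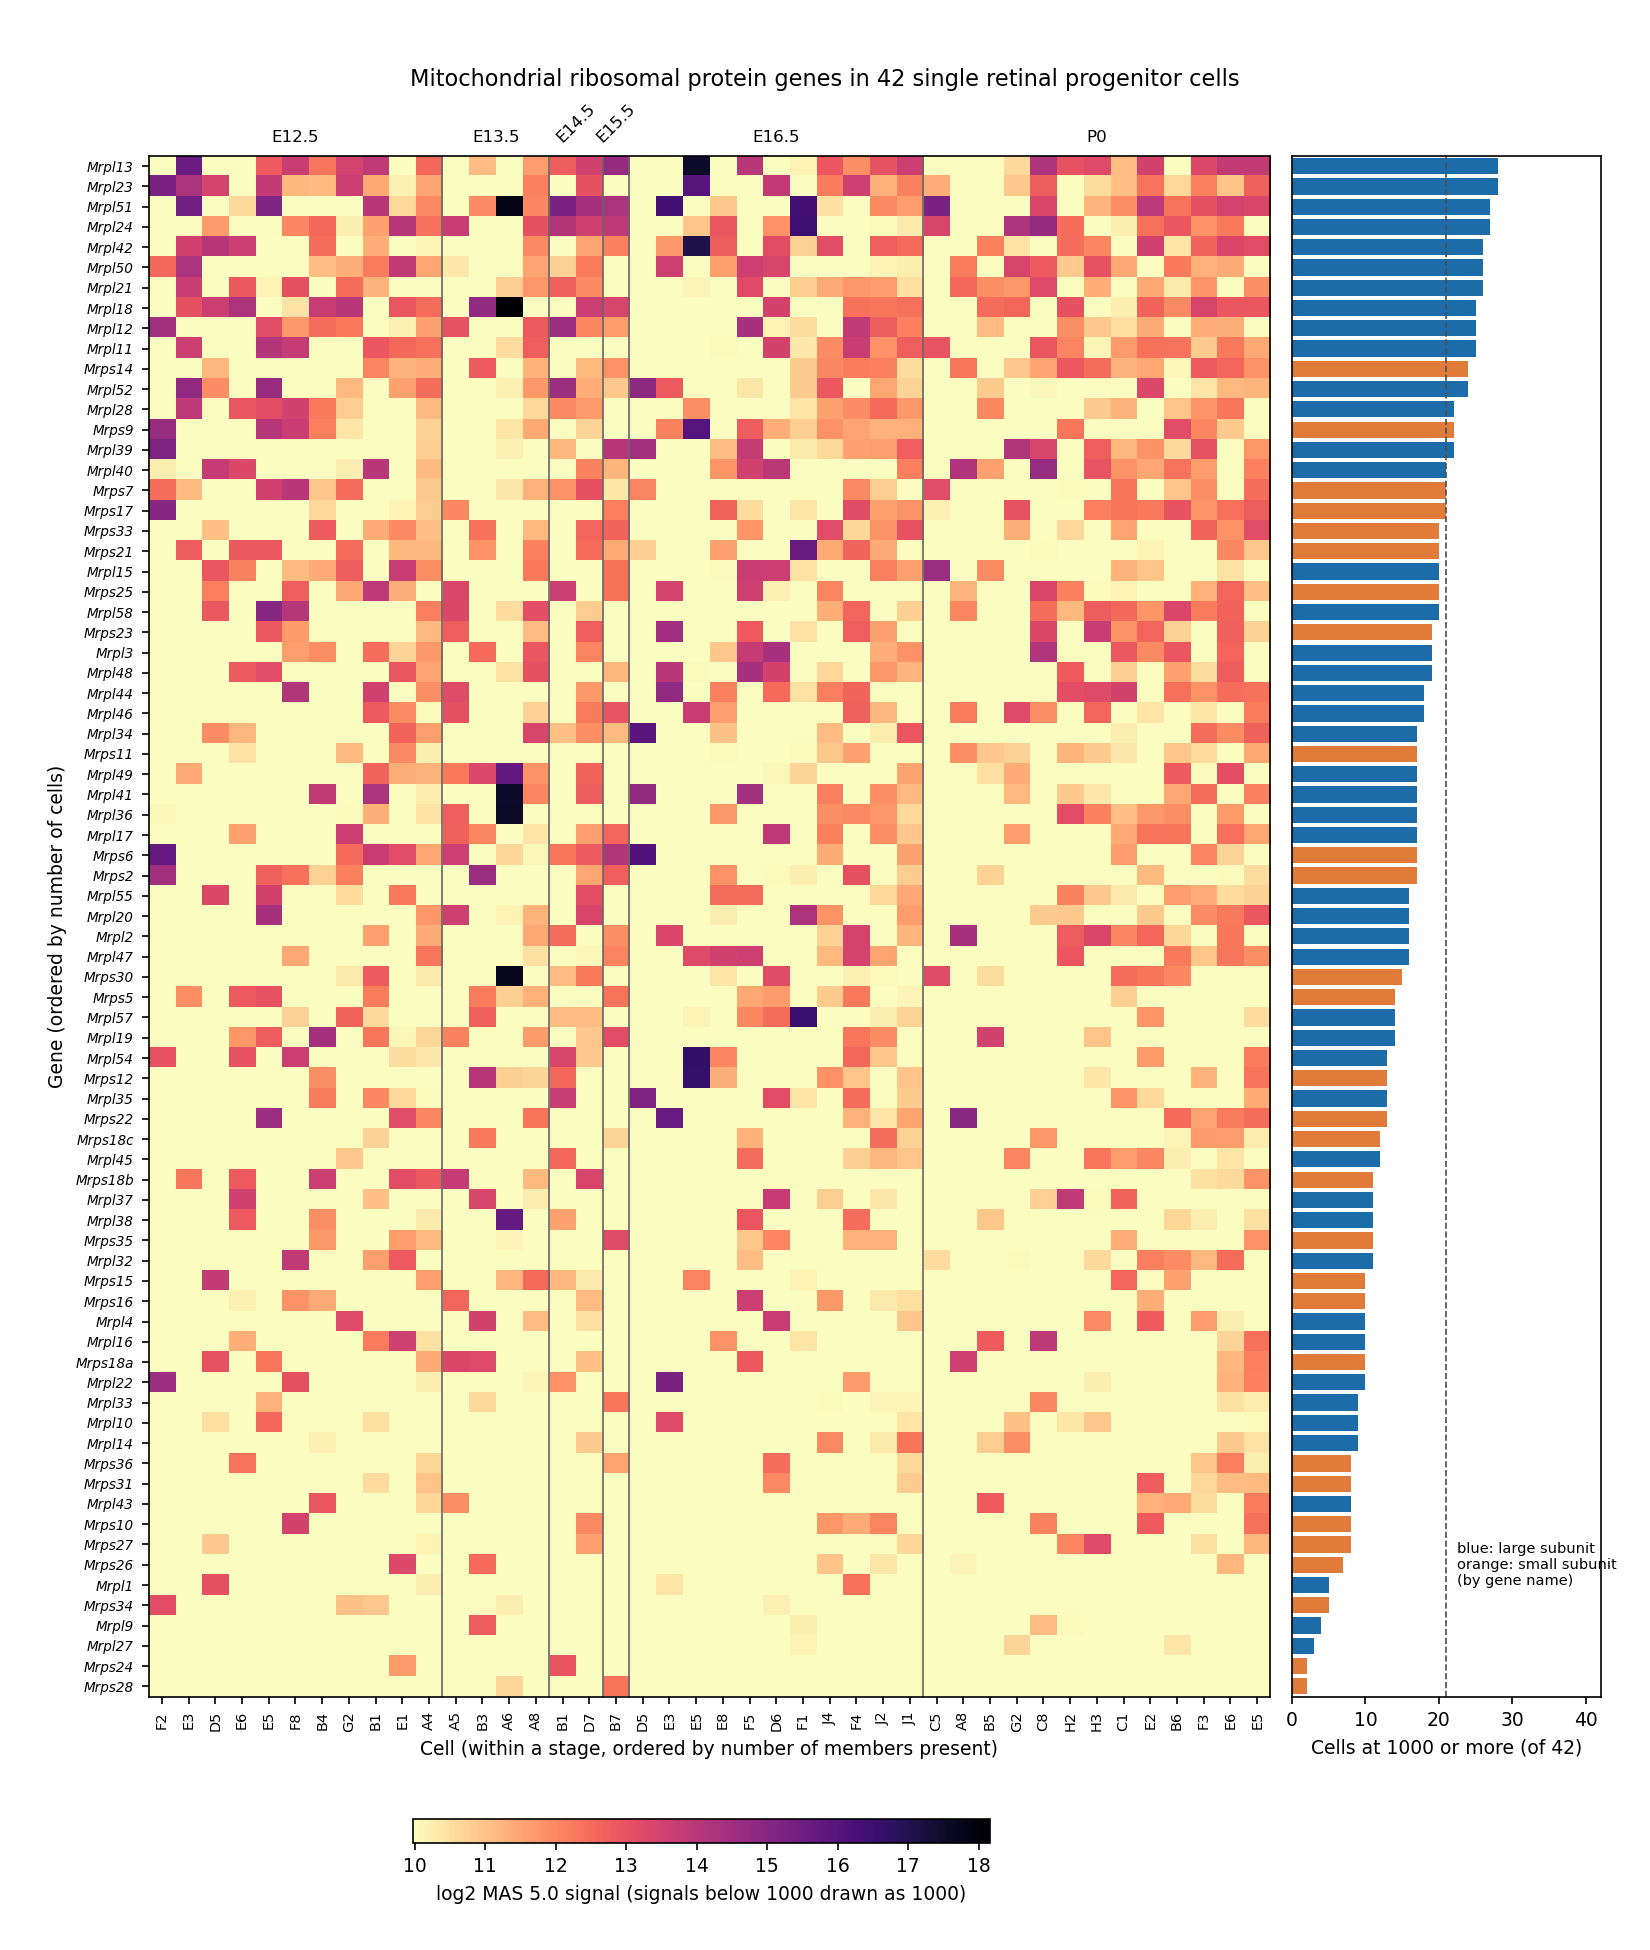
Signal of each of the 76 members (rows) in each of the 42 cells (columns, by stage), as log2 MAS 5.0 signal with values below 1000 drawn as 1000, and at the right the number of cells at 1000 or more. No row is filled across all cells, the top rows reach 28 of 42 cells, and the darkest squares belong to few cells, among them E13.5 A6 and E16.5 E5.

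The 10 members in the most cells were all of the large subunit. Mrpl13 (chr15:55534095-55557312, GRCm38.p6) and Mrpl23 (chr7:142532467-142540747), both with bacterial counterparts, were present in 28 of 42 cells (66.7%, 95% interval 50.5 to 80.4%). Mrpl13 ranged from 58.3 to 48352 in the cells of E12.5 (median 5924), from 25.3 to 184530 in those of E16.5 (median 3732) and from 114 to 18828 in those of P0 (median 8136). Mrpl23 lies near the exit of the tunnel through which the new protein leaves the ribosome. It ranged from 52.9 to 39231 at E12.5 (median 2967), from 45.7 to 63947 at E16.5 (median 2521) and from 265 to 6958 at P0 (median 2032). For both genes the ranges of the stages overlapped, and each of E12.5, E16.5 and P0 held at least 1 cell far below 1000 and several above it.

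Mrpl51 and Mrpl24 were present in 27 cells, and Mrpl42, Mrpl50 and Mrpl21 in 26. Mrpl18, a protein of the central protuberance, Mrpl12, a protein of the stalk that receives translation factors, and Mrpl11, at the base of the stalk, were each present in 25. Without the probe sets whose names mark them as matching several transcripts, of the same gene or of others, Mrpl51 was present in 2.38% of cells and Mrpl21 in 9.52%, so that their places among the widest members rest on those probe sets. The share of Mrpl15, described next, was likewise 2.38%. Mrpl23 was the widest member at E12.5, where 10 of 11 cells had it, against 6 of 11 cells of E16.5 and 10 of 13 cells of P0. Mrps14 (24 cells) was the widest member of the small subunit, followed by Mrps9 (22 cells), and Mrps7 and Mrps17 (21 cells each). With the mean of its 3 probe sets, Mrps14 was present in 28.6% of all cells in place of 57.1%.

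The other wide members were Mrpl52 in 24 cells, Mrpl28 and Mrpl39 in 22 and Mrpl40 in 21. Mrps33, Mrps21, Mrps25, Mrpl15 and Mrpl58 followed with 20 cells each, and Mrps23, Mrpl3 and Mrpl48 with 19. Mrpl3, which approaches the peptidyl transferase center, was present in 5 of 11 cells of E12.5, in 6 of 11 of E16.5 and in 5 of 13 of P0. Of the 6 cells of E16.5 with Mrpl3, 4 were on the arrays with displaced controls. Mrpl44 and Mrpl46 were present in 18 cells, and Mrpl34, Mrps11, Mrpl49, Mrpl41, Mrpl36, Mrpl17, Mrps6 and Mrps2 in 17. Mrpl49 was the only member present in all 4 cells of E13.5. Mrpl55, Mrpl20, Mrpl2 and Mrpl47 were present in 16 cells, Mrps30 in 15, Mrps5, Mrpl57 and Mrpl19 in 14, and Mrpl54, Mrps12, Mrpl35 and Mrps22 in 13. Of the 13 cells with Mrps12, 1 was of E12.5 and 5 were of E16.5, 3 of these on the arrays with displaced controls. Between 10 and 12 cells were positive for Mrps18c, Mrpl45, Mrps18b, Mrpl37, Mrpl38, Mrps35, Mrpl32, Mrps15, Mrps16, Mrpl4, Mrpl16, Mrps18a and Mrpl22. Mrpl32, a protein matured by a protease of the inner membrane, was present in 7 cells of P0 and 4 of all other cells. Mrpl33, Mrpl10 and Mrpl14 were present in 9 cells and Mrps36 and Mrps31 in 8. Every one of these genes was below 1000 in 18 or more of the 42 cells.

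The members in the fewest cells came from both subunits. Mrps28 was present in 2 cells, at 5089 in the E15.5 cell B7 and at 1599 in E13.5 cell A6. Mrps24, which lies by the mRNA entry of the small subunit, was present in 2 cells as well, at 7913 in E14.5 cell B1 and at 3280 in E12.5 cell E1. Neither gene was present in any of the 11 cells of E16.5 (0 of 11, upper limit 28.5%) or the 13 of P0 (0 of 13, upper limit 24.7%). For Mrps24, signals just below the level reached 902 at E16.5 (cell E8) and 860 at P0 (cell E6). At a level of 500, Mrps24 was present in 19.0% of all cells in place of 4.76%. Mrpl27 was present in 3 cells at 1124 to 1640 and Mrpl9 in 4 cells at 1051 to 6958. At a level of 500, Mrpl9 was present in 23.8% of all cells in place of 9.52%. Mrpl1 and Mrps34 were present in 5 cells, Mrps26 in 7, and Mrps27, Mrps10 and Mrpl43 in 8. Of the 2 cells with Mrps28, the 3 with Mrpl27, the 4 with Mrpl9 and the 5 with Mrps34, 1 each was E13.5 A6 or E16.5 F1, the cells with the most signals of genes not expected in retina.

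The members of the large subunit were present in 40.1% of combinations (95% interval 37.9 to 42.3%) and those of the small subunit in 31.6% (29.0 to 34.3%). The median large subunit member was present in 17 cells and the median small subunit member in 13, and 14 of 47 and 4 of 29 were present in 21 or more cells. A larger share of large than of small subunit members was present in 35 of 42 cells. Across cells the numbers of large and small subunit members moved together (Spearman's rho 0.80, Pearson's r 0.80, n = 42 cells), and both counts share the cell's amplification and array. Members that have bacterial counterparts (45 measured) were present in 36.9% of combinations and those that carry the names of mitochondria-specific proteins (29 measured) in 37.0%, and these values differed by less than their counting intervals. Members with 1 probe set (34 genes) were present in 33.5% of combinations and members with several (42 genes) in 39.5%, while for all genes the values were 9.85% and 24.4%. A gene was called present on its highest probe set alone. Of the 697 present combinations of members with several probe sets, 89 (12.8%) had all probe sets of the gene at the level of presence. In the rest, another probe set of the same gene lay below that level, and the cause was not tested.

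Not every gene named for the small subunit belongs to it. Mrps30 and Mrps18a are parts of the large subunit in mammals despite their names. Mrps30 was present in 15 cells and Mrps18a in 10. Mrps36, present in 8 cells, is now known as a subunit of the oxoglutarate dehydrogenase complex, and Mrpl58, present in 20 cells, is a peptidyl-tRNA hydrolase built into the large subunit.

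Mammals have 3 genes for relatives of bacterial ribosomal protein S18, and their proteins occupy different places in the ribosome. Mrps18c was present in 12 cells, Mrps18b in 11 and Mrps18a in 10. A total of 20 cells had none of the 3 at 1000 or more, 14 cells had 1, 5 cells had 2 and 3 cells had all 3. Mrps18a and Mrps18b were both present in 5 cells, Mrps18a and Mrps18c in 5, and Mrps18b and Mrps18c in 4. By stage, Mrps18b (chr17:35910380-35916440) was present in 5 of 11 cells of E12.5, in 0 of 11 cells of E16.5 and in 3 of 13 cells of P0. The upper limit for 0 of 11 cells was 28.5%. Signals of Mrps18b reached 12914 at E12.5 and 3615 at P0, but only 996 at E16.5 (cell F1), just below the level. At a level of 500, Mrps18b was present in 47.6% of all cells in place of 26.2%. Mrps18c was present in 2, 3 and 5 cells and Mrps18a in 3, 1 and 3 cells of the same stages. Of the 3 cells of E16.5 with Mrps18c, 2 were on the arrays with displaced controls.

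The number of members present per cell ranged from 8 to 54 of 76, with a median of 26 and an SD of 11.5 over the 42 cells. E12.5 cell A4 had 54, and P0 cells E5 and E6 and E16.5 cell J1 had 47 each. E16.5 cell D5 had 8, P0 cell C5 had 9 and P0 cell A8 had 12. Cells of E12.5 had a median of 24 members (range 14 to 54), cells of E13.5 of 21.5 (range 19 to 40), cells of E16.5 of 27 (range 8 to 47; 20.5 without the 5 arrays with displaced controls) and cells of P0 of 32 (range 9 to 47). The cells of E14.5 had 24 and 43 members and the cell of E15.5 had 32. The ranges of all stages with more than 1 cell overlapped. No 2 cells had the same set of members, and 42 different sets were found.

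**Figure D2:**
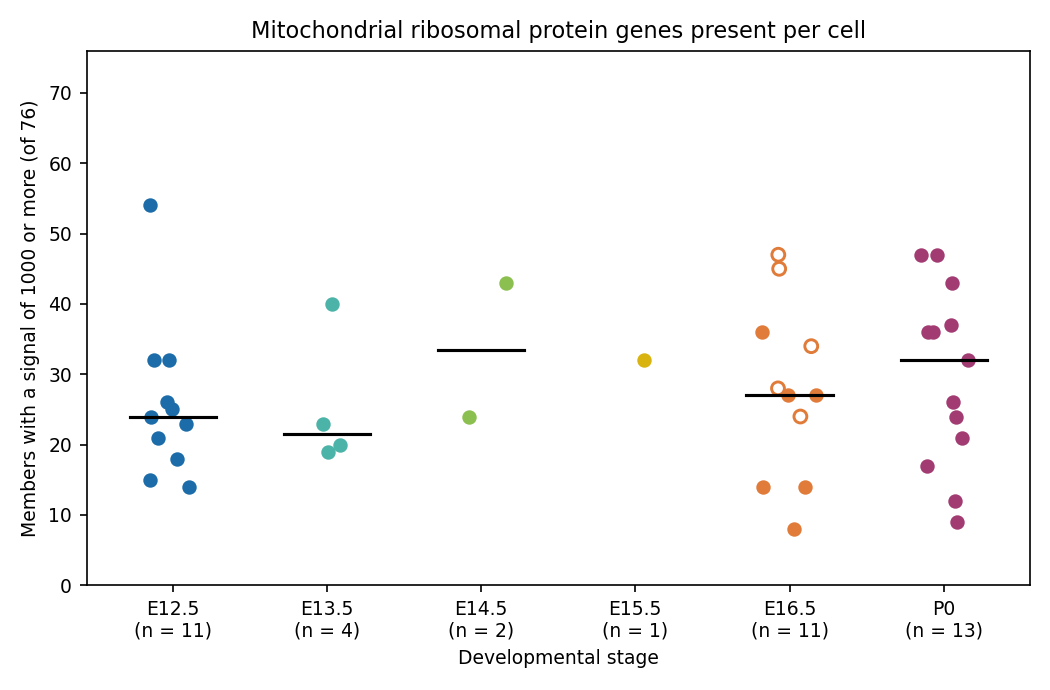
Count of the 76 members at 1000 or more (vertical axis) for every cell, grouped by stage (horizontal axis). Points are single cells, lines are medians, and open circles mark the 5 E16.5 arrays with displaced controls. The stages overlap broadly, with 14 to 54 members at E12.5, 8 to 47 at E16.5 and 9 to 47 at P0.

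The number of members followed the number of genes present in the cell (Spearman's rho 0.88, Pearson's r 0.86, n = 42 cells). Within stages rho was 0.94 at E12.5 (n = 11), 0.86 at E16.5 (n = 11) and 0.94 at P0 (n = 13), and without the 5 E16.5 arrays it was 0.89 (n = 37). Both counts come from the same array, and members are among the genes counted. The 14 cells with the fewest genes (1386 to 2644) had a median of 16.5 members and the 14 cells with the most genes (3554 to 5253) a median of 41.5. The share of members present was higher than the share of all genes in 42 of 42 cells, by a factor of 1.02 (P0 cell C5) to 2.74 (P0 cell E5) with a median of 2.19. E16.5 cell F1 had the most genes of any cell, 5253, but only 28 members, a factor of 1.28, and E13.5 cell A6 had 23 members among 3554 genes, a factor of 1.55.

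**Figure D3:**
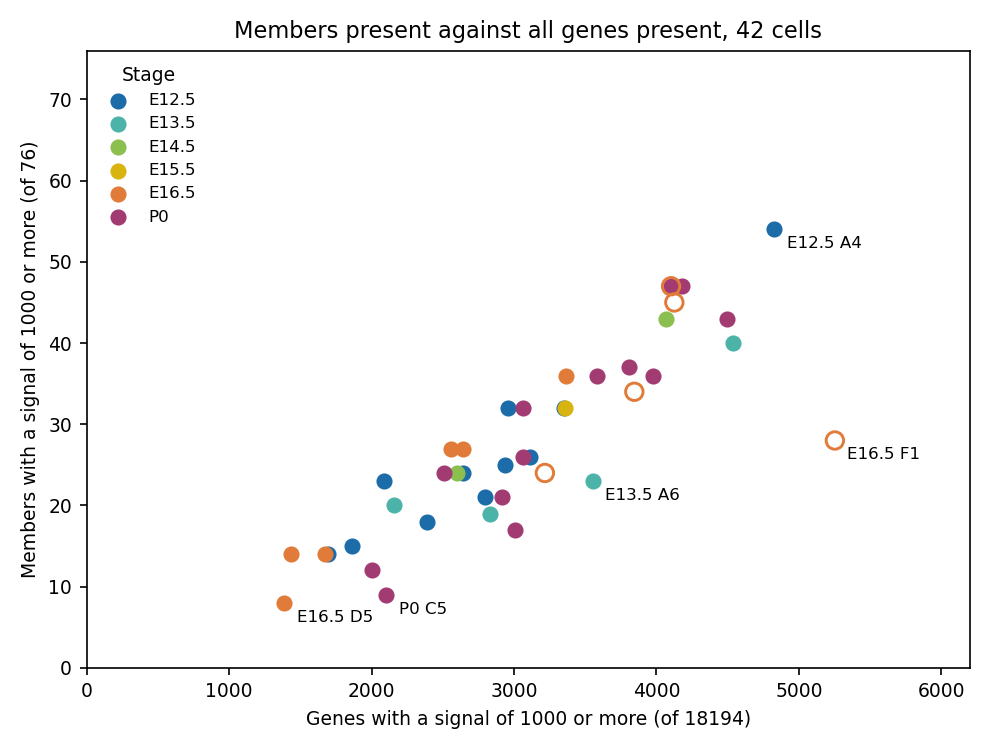
Number of members present (vertical axis) against the number of all genes present (horizontal axis), both at a signal of 1000 or more, with 1 point per cell colored by stage and open circles for the 5 E16.5 arrays with displaced controls. Members increase with all genes from 8 of 76 in the cell with 1386 genes to 54 in the cell with 4828, and E16.5 F1 and E13.5 A6 lie below the other cells with similar numbers of genes.

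Signals of a member varied widely among the cells in which it was present. The highest signal was 15.4 times the lowest signal at or above 1000 for the median member, 1.46 times for Mrpl27 and 241 times for Mrpl18. In total, 55 of 76 members reached 10000 in some cell and 8 reached 100000. The 5 highest single signals were all from E13.5 cell A6. They belonged to Mrpl18 at 293375, Mrpl51 at 230061, Mrps30 at 212095, Mrpl36 at 190582 and Mrpl41 at 185545. The next highest cell was at 28088 for Mrpl18, 85577 for Mrpl51, 9405 for Mrps30, 8914 for Mrpl36 and 27304 for Mrpl41. A6 was thus 22.6 times the next cell for Mrps30 and 21.4 times for Mrpl36. Such values on A6 were not particular to members. It also held the highest signal of Rpl4 (534236), Eef1a1 (420926) and Sdhb (348013), among others. Other genes, such as Atp5a1 and Gapdh, were highest in E16.5 cell E5.

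The members present in A6 fell into separate ranges. Of its 23 members, 16 lay between 1101 and 2329 and 7 between 52893 and 293375, with none between. The 13 keratin, immunoglobulin and chemosensory receptor genes present on this array had a median of 1338 and a highest signal of 3269, so that all 16 lower members lay below the highest of them. E16.5 cell F1 showed the same form, with 23 of 28 members between 1018 and 1832 and 5 between 19188 and 93551, while its 24 such genes had a median of 1180 and a highest signal of 2561. The 5 higher members of F1 were Mrpl20, Mrps21, Mrpl51, Mrpl24 and Mrpl57. The part of signals of genes not expected in retina in the lower members was not tested.

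E16.5 cell E5 and E13.5 cell A6 each held the highest signal of all cells for 7 members. In E5 these were Mrpl13, Mrpl23, Mrpl42, Mrps9, Mrpl46, Mrpl54 and Mrps12, the last a protein of the decoding center, at 99891 against 16836 in the next cell. Only 14 members were present in E5. The 14 cells with the fewest genes held the highest signal of 45 of 76 members, and the 14 cells with the most genes that of 14. The median signal of the members present decreased with the number of genes present (Spearman's rho -0.83, n = 42 cells), with rho of -0.97 within E12.5 (n = 11), -0.95 within E16.5 (n = 11) and -0.38 within P0 (n = 13). It went from 28860 in E16.5 cell D5, with 1386 genes, to 1382 in F1. All arrays were scaled to the same trimmed mean, and the part of this scaling in the relation was not tested.

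By stage, members were present in 34.0% of combinations at E12.5 (95% interval 30.8 to 37.3%), in 36.4% of those of E16.5 (33.1 to 39.7%) and in 39.2% of those of P0 (36.1 to 42.3%). All genes were present in 15.3%, 16.8% and 18.1%, in the same order of stages, and in 11.97% at E16.5 without the 5 arrays. The P0 minus E12.5 difference of 5.20 percentage points was smaller than the spread between cells within these stages (SD 15.7 points). At E16.5 the 5 arrays with displaced controls had 46.8% and the 6 others 27.6%. Without the 5 arrays the E16.5 minus E12.5 difference changed from 2.39 to -6.34 points, and the P0 minus E16.5 difference from 2.81 to 11.5. The large subunit members were present in 36.4% of combinations at E12.5, in 39.8% of those at E16.5 and in 44.2% of those at P0, and the small subunit members in 30.1%, 30.7% and 31.0%. Without the 5 arrays the E16.5 values were 29.1% and 25.3%, below those of E12.5 and P0.

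Between E12.5 and P0, 46 members were present in a larger percent of cells at P0, 29 in a smaller and 1 in the same. The median difference of the members was 5.59 points, and it was 3.50 for the 9703 genes present in 2 to 28 cells, the range of the members. Mrps14 and Mrpl39 were present in at least 40 points more of the P0 cells (2 of 76 members, or 2.63%). Of all genes measured, 1.84% differed so, and of those in 2 to 28 cells 3.3%. No member was present in at least 40 points fewer cells at P0 (background 0.478% of all genes and 0.835% of those in 2 to 28 cells). The number of members past 40 points was thus near the background in both directions. No member was past 40 points higher at P0 at a level of 5000 or with the mean of the probe sets, and 1 was with quantile normalization and without the probe sets marked as matching several transcripts. Members left with no probe set were not counted in the last of these settings.

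Mrps14, a protein of the head of the small subunit with a bacterial counterpart (chr1:160195215-160201186), ranged from 7.54 to 4251 at E12.5 (median 170), from 4.89 to 4693 at E16.5 (median 634) and from 28.4 to 7505 at P0 (median 2902). It was present in 4 of 11, 5 of 11 and 11 of 13 cells. At E16.5, Mrps14 was present on 4 of the 5 arrays with displaced controls and in 1 of the 6 other cells. In those 6 cells its share was below that of E12.5. The difference between P0 and E12.5 was 48.3 points (Newcombe 95% interval 9.27 to 72.2), although the ranges of signals overlapped. The count of cells rests on the highest probe set, and with the mean Mrps14 was present in 28.6% of all cells in place of 57.1%. Mrpl39 (chr16:84718281-84735244) was present in 2 of 11 cells of E12.5, in 8 of 11 cells of E16.5 and in 8 of 13 cells of P0, with medians of 126, 2187 and 2367. Its highest signal, 37800, was nevertheless from an E12.5 cell, F2. It was present on all 5 E16.5 arrays with displaced controls and in 3 of the 6 other cells of E16.5. Without the probe sets marked as matching several transcripts, Mrpl39 was present in 31.0% of all cells in place of 52.4%.

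Next came Mrpl45, which anchors the ribosome to the inner membrane, present in 1 cell of 11 of E12.5 and in 6 cells of 13 of P0. Mrpl2, a protein near the peptidyl transferase center, was present in 2 and 7 cells, and Mrps17 and Mrps11 in 4 and 9 cells. With the mean of its probe sets, Mrps11 was present in 19.0% of all cells in place of 40.5%. At a level of 2000 it was present in 14.3%. In the other direction, Mrpl19 was present in 6 of 11 cells of E12.5, in 2 of 11 cells of E16.5 and in 2 of 13 cells of P0, with a P0 minus E12.5 difference of -39.2 points (-65.8 to -1.41). Its signals ranged from 34.7 to 21566 at E12.5 (median 1086) and from 41.4 to 11719 at P0 (median 89.5). Mrpl54 was present in 5 and 2 cells of E12.5 and P0, Mrps5, which lies by the mRNA entry, in 4 and 1, Mrps34 in 3 and 0 (0 of 13, upper limit 24.7%), Mrpl15 in 7 and 5, and Mrps21 in 6 and 4. Mrpl58 had the same difference as Mrps17 and Mrps11, and Mrps9 the same as Mrps21, and these ties were settled by the difference in signal. The intervals cover the counting of cells alone, with 1 sample per stage, are no test between stages and were not adjusted for the choice of the members with the largest differences.

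**Figure D4:**
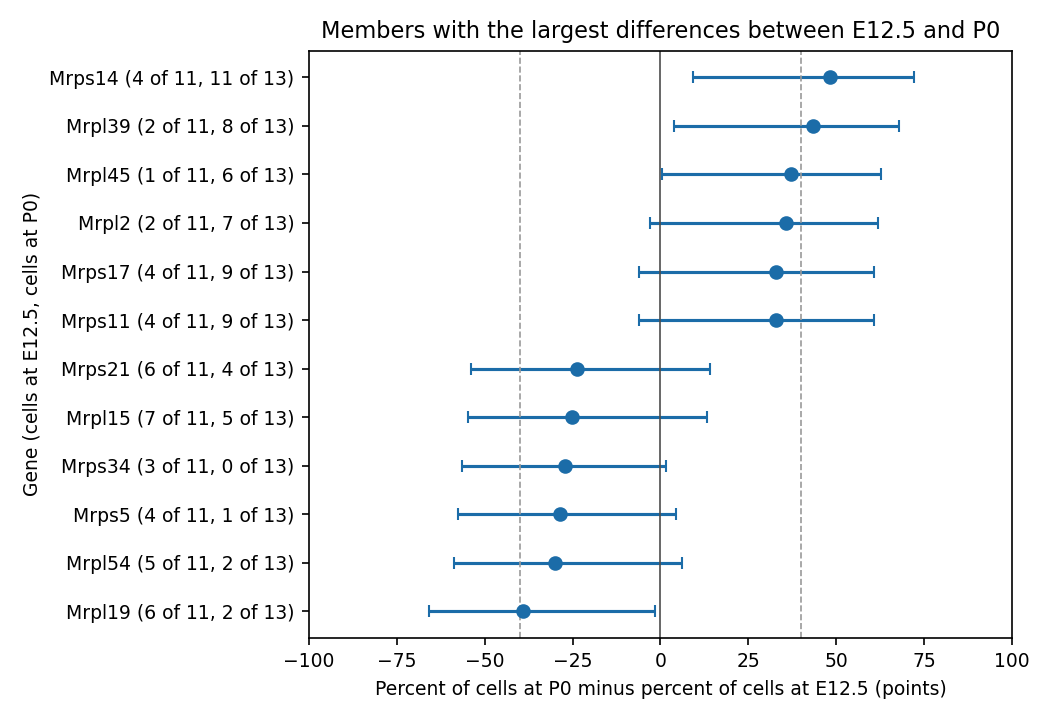
Percent of positive cells at P0 less that at E12.5 (horizontal axis, percentage points) for 6 members with the largest differences in each direction, where Mrpl58 and Mrps9 tied for the last places and are not drawn. Points are differences, bars are Newcombe 95% intervals for counting error, dashed lines mark 40 points, and the numbers of positive cells are given beside each gene. Mrps14 and Mrpl39 lie beyond 40 points and none lies beyond -40.

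Between E12.5 and E16.5, Mrpl39 was past 40 points upward (1 of 76, background 0.715%) and Mrps18b downward (1 of 76, background 0.61%). Without the 5 E16.5 arrays, no member passed upward (background 0.632%), and Mrps18b and Mrpl23 passed downward (2 of 76, background 2.42%). Between E16.5 and P0, Mrpl32 (1 of 11 and 7 of 13 cells) and Mrpl58 (3 of 11 and 9 of 13) were present in more P0 cells by at least 40 points (2 of 76, background 1.95%). Mrps9 was present in fewer cells of P0 (4 of 13) than of E16.5 (9 of 11), with a P0 minus E16.5 difference of -51.0 points (-73.4 to -11.1; background 0.495%). Mrps9 (chr1:42851233-42905683) ranged from 170 to 65281 at E16.5 (median 2618) and from 29.9 to 9190 at P0 (median 221). It was present on 4 of the 5 E16.5 arrays with displaced controls and in 5 of the 6 other cells. Without the 5 arrays, Mrps5 and Mrps9 were lower at P0 by 40 points (2 of 76, background 0.495%), and Mrpl11, Mrpl20, Mrpl51, Mrpl58, Mrps11 and Mrps14 were higher (6 of 76, background 5.23%). These comparisons share the cells of a stage in pairs. The backgrounds of the comparisons with E16.5 are over all genes measured, whose median was 3 cells. They were not limited to genes in 2 to 28 cells. For P0 against E12.5 that limit raised the background from 1.84% to 3.3% higher and from 0.478% to 0.835% lower.

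A smaller share of members was present per cell than of the respiratory chain or of the cytosolic ribosome. Nuclear-encoded subunits of the respiratory chain and ATP synthase (71 genes) were present in 64.9% of combinations (63.1 to 66.6%), and cytosolic ribosomal proteins (46 genes, tissue-specific paralogs included) in 77.8% (75.9 to 79.6%). The share of members was below that of each of these groups in 42 of 42 cells. The median gene was present in 16 cells among the members, 29 among the respiratory subunits and 41.5 among the cytosolic ribosomal proteins. Probe sets differ in how well they detect a transcript, and their signals were not compared between genes. By stage the respiratory subunits were present in 62.7%, 67.9% and 62.5% of combinations at E12.5, E16.5 and P0, and the cytosolic ribosomal proteins in 78.9%, 80.8% and 73.4%. Without the 5 arrays with displaced controls, which had 76.9% and 83.9%, the E16.5 values were 60.3% and 78.3%, both below those of E12.5. Past 40 points between P0 and E12.5, 2 members were higher and 0 lower at P0. Of the 71 respiratory subunits 3 were higher and 4 lower, and of the 46 cytosolic ribosomal proteins 0 were higher and 2 lower. Of all genes, 1.84% were higher and 0.478% lower. All genes had a median of 3 cells, against 29 and 41.5 for these lists. No background of genes in as many cells as these lists was computed, so their counts cannot be read as an excess. Atp5a1, a subunit of the catalytic head of the ATP synthase, was present in 41 cells, and Cox4i1 and Cox7a2, subunits of cytochrome c oxidase, in 40 each, while Ndufb1 and Ndufb4, subunits of complex I, were present in 1 cell each. Rpl4, Rps4x and Rplp0 were present in all 42 cells, while Rps16 and Rpl3l were listed below 1000 in all of them (0 of 42, upper limit 8.41% of cells).

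The lists of genes that work with the mitochondrial ribosome had smaller shares than the members, while its proteins under other symbols had a share whose interval included that of the members. Proteins of the ribosome under other symbols (4 of 7 listed were measured) were present in 41.1% of combinations (33.6 to 48.9%), with Ptcd3 in 26 cells, Chchd1 in 23, Dap3 in 18 and Gadd45gip1 in 2. Translation factors of mitochondria (10 genes) were present in 24.0%. Tufm, the elongation factor that brings tRNAs to the ribosome, was present in 28 cells, Oxa1l, which inserts new proteins into the inner membrane, in 21 and Tsfm, the exchange factor of Tufm, in 16, while Gfm2 and Mtif3 were present in 4 and 3. Genes of ribosome assembly (21 genes) were present in 10.8%, from 9 cells for Fastkd2, 7 for Mtg2 and 6 for Gtpbp10 to 2 for Tfb1m and 1 for Mterf3. Mitochondrial tRNA synthetases (16 genes) were present in 14.3%, with Tars2 in 15 cells, Lars2 in 12 and Rars2 in 11, and with Wars2 in 1 and Mars2 in none. Genes of mitochondrial DNA and RNA upkeep (11 genes) were present in 26.8%, with Tfam, which packages the mitochondrial genome, in 25 cells, Polg, its DNA polymerase, in 20 and Slirp, which stabilizes its mRNAs, in 17. Pnpt1 was present in 4 cells and Polg2 in 1. ND5, the only product of the mitochondrial genome among the genes measured, was present in 39 of 42 cells.

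**Figure D5:**
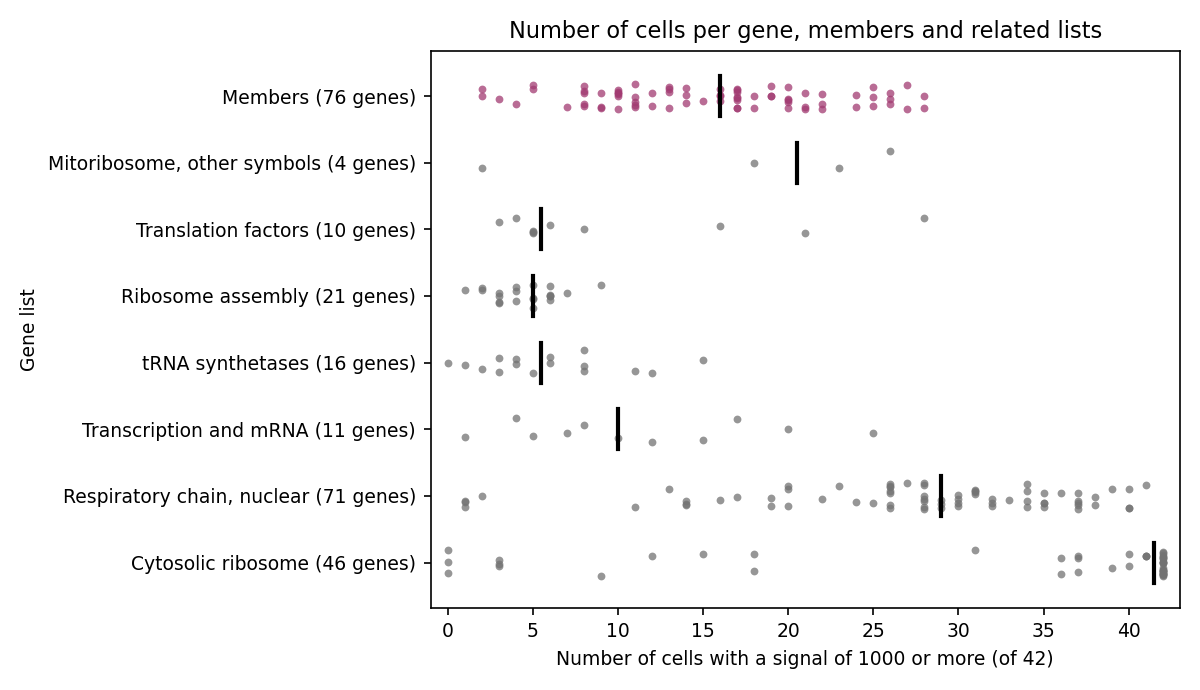
Number of positive cells, at 1000 or more (horizontal axis, of 42), for each gene of the members and of 7 related lists (vertical axis). Points are genes and black lines are medians, which lie at 16 cells for the members, 29 for the nuclear-encoded respiratory subunits and 41.5 for the cytosolic ribosomal proteins.

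Some members share a start region with a neighbor transcribed in the other direction. A start of another gene on the opposite strand, pointing away and within 1000 bases, was found for 25 of the 67 members with a promoter entry (37.3%), against 16.3% of 14453 measured genes. Members with such a neighbor were present in a median of 16 cells and those without in 17. Mrpl46 and Mrps11, which start 42 bases apart, form the pair with both genes among the members. Mrpl46 was present in 18 cells, Mrps11 in 17 and both in 9, and 26 cells had either. Mrpl49 starts 192 bases from Fau, a gene of the cytosolic ribosome that was present in all 42 cells, while Mrpl49 was present in 17. Mrpl47 starts 308 bases from Ndufb5, a subunit of complex I, and they were present in 16 and 30 cells, with 12 in common. Mrpl43 starts 116 bases from Twnk, the helicase of mitochondrial DNA, and they were present in 8 and 7 cells, with 2 in common.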

How the data were processed

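Single retinal cells were lysed, and their cDNA was amplified by PCR and hybridized by the authors to Affymetrix 430 2.0 arrays. The deposited values are linear signal intensity values that the authors computed with MAS 5.0, with arrays scaled to a target of 500 (in the values, the mean after trimming 2% at each end lay between 500.0017 and 500.0226). Of 45101 probe sets, 34958 had 1 gene symbol in the platform annotation and were used, 932 had several and 9211 were unnamed here. The value of a gene was its highest probe set, and 1000 was the level of presence. The members, gene lists and rules were chosen with earlier results of these data known. The 37 members named were the 10 in the most and in the fewest cells, the 6 with the largest P0 minus E12.5 difference of either sign, the 5 with the highest single signal, the Mrps18 genes and Mrps30. Mrps7, Mrps9, Mrpl32, Mrpl58, Mrps36, neighbors of members and others were named after their values were seen. Of each related list the 3 genes in the most and 2 in the fewest cells were named. Shares have exact Clopper-Pearson and differences Newcombe 95% intervals (scipy 1.17.1, statsmodels 0.14.6). The summaries were tested on simulated data. Alternatives were other levels (500, 2000, 5000), other probe set rules, quantile normalization and leaving out arrays or each cell. One array per cell limits the precision.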

Additional observations from a re-analysis of the deposited data

Results flagged for a closer look

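Probe sets listed with several gene symbols were not used for the members, and 4 of them name a member. Signals of 1000 or more were found on these probe sets. The probe set shared by Ccdc142 and Mrpl53 was at 1000 or more in 27 of 42 cells, with a highest signal of 26334 in E16.5 cell E3. One probe set shared by Gm6238 and Mrpl30 was at 1000 or more in 22 cells (highest 26099, E12.5 cell E5), and another of the same genes in 5 cells (highest 1873, E16.5 cell J1). The probe set shared by Nme3 and Mrps34 was at 1000 or more in 6 cells (highest 5435, E16.5 cell F5). Mrpl30 and Mrpl53 were measured by no other probe set and are not among the 76 members.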

How the results depend on the processing

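Leaving out single cells aside, 9 alternatives were run. In 8 of them, the shares of all cells and stages and the median members per cell moved by less than the SD between cells. This margin was wide, 12.9 to 17.7 points for the shares (for the single cell of E15.5, the counting interval was used). Staying within it therefore does not show that the values were stable. Within it, the median went from 26 members per cell to 33 at a level of 500 and 21.5 at 2000. The median was 17.5 without the probe sets marked as matching several transcripts, over fewer members. At a level of 5000, the exception, the median was 11 members per cell, and the share was 14.4% over all cells, 16.0% at E12.5, 14.1% at E13.5, 18.4% at E14.5, 21.1% at E15.5, 12.7% at E16.5 and 13.5% at P0. The differences in share between stages changed sign among the alternatives and ranged from -2.57 to 7.22 points for P0 minus E12.5, -6.34 to 9.09 for E16.5 minus E12.5 and -1.87 to 11.5 for P0 minus E16.5. Members present in 21 or more cells numbered 32 at a level of 500, 7 at 2000, 2 at 5000 and 10 with unmarked probe sets only (those not named as matching several transcripts), in place of 18. Members with no unmarked probe set dropped out of that last setting. Its shares and counts of members are therefore over fewer than 76 members. Members past 40 points higher at P0 than at E12.5 numbered 0 at 5000 and with the mean of the probe sets, and 1 with unmarked probe sets and with quantile normalization (2 to 4 leaving out single cells). Members lower at P0 than at E12.5 numbered 1 at 2000, 2 with the mean and 3 with quantile normalization (0 to 1). Higher at E16.5 than at E12.5 were 2 at 500, with unmarked probe sets and with quantile normalization, 0 at 5000, with the mean and without the 5 E16.5 arrays, and 3 without E13.5 A6 and E16.5 F1 (1 to 3). Lower at E16.5 were 0 at 500, at 5000 and with unmarked probe sets, and 2 without the 5 arrays (1 to 5). Higher at P0 than at E16.5 were 1 at 500 and with unmarked probe sets, 0 at 5000 and 6 without the 5 arrays (1 to 4). Lower at P0 than at E16.5 were 3 at 500 and with 1 probe set per gene, 0 at 5000, 4 with quantile normalization, and 2 without the 5 arrays and without A6 and F1 (1 to 3). Mrpl39, Mrps14, Mrps18b, Mrpl32 and Mrps9 stayed past 40 points whichever cell was left out, and Mrpl58 in 7 of 24 cases. The causes of these changes were not tested. With unmarked probe sets only, Mrpl51 was present in 2.38% of cells, Mrpl21 in 9.52%, Mrpl15 in 2.38% and Mrpl1 in 0 of 42 cells. Mrpl39 was then present in 31.0% of cells in place of 52.4%, and Mrpl19 in 16.7% in place of 33.3%. Signals between 1000 and 1200 made up 2.29% of combinations and those between 800 and 1000 2.41%. No paired analysis was possible because the replicate numbers only follow the order of the samples. With 1 array per cell, transcripts lost in amplification cannot be told apart from transcripts that the cell did not contain.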
